A study of Mus musculus with 20 samples.

Results

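The genes described here are 10 genes of lipid uptake and lipid droplet storage, Cd36, Fabp1, Lpl, Pparg, Plin2, Plin4, Plin5, Cidea, Cideb and Cidec. They were chosen by symbol, with earlier results of these data known, and all 10 were found among the 25444 loci of the deposited tables. Of them, 9 passed the filter on low counts that 13704 of the loci passed, and Cidea, which had almost no reads outside B6 males, did not.

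RNA-seq of the left lateral liver lobe was available for 20 mice aged 20 weeks, with 5 mice in each of 4 groups: B6 females (B6 F), B6 males (B6 M), C3 females (C3 F) and C3 males (C3 M). B6 is the inbred strain C57BL/6N and C3 the inbred strain C3H/HeN, and the labels give no engineered allele and no treatment in any group. All mice were housed singly and fed ad libitum, with a change from NIH-31 to NTP2000 diet before collection. Males and females were kept in separate rooms, so that sex and room cannot be told apart. The libraries were sequenced in 3 pools, of which pool 1 held 8 livers, pool 2 held 5 and pool 3 held 7, and every group had livers in every pool. Total counts lay between 27370921 and 46835745 per liver, and pool 3 was the deepest with 38928480 to 46835745. The hepatocyte markers Alb, Apoa1, Ttr, Cps1, Tat and Serpina1c summed to at least 77783 CPM (counts scaled to library size, with TMM factors) in every liver, whereas the muscle markers Acta1, Ckm, Myh7 and Myl2 summed to at most 0.193 CPM.

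Hepatocytes take up fatty acids from the blood, some of them released from lipoproteins by lipases, and store the excess as triglyceride in cytosolic droplets. Perilipins coat these droplets and control the access of lipases to them, and the proteins of the CIDE family promote droplet fusion, growth or the lipidation of secreted particles. The nuclear receptor PPARγ, encoded by Pparg, is the chief regulator of the fat cell programme and activates many of these genes in liver when its level is raised, as in fatty liver.

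On the mm9 build Cd36 lies at chr5:17287508-17394777 and Fabp1 at chr6:71149882-71155017. Lpl is at chr8:71404454-71430831 and Pparg at chr6:115310969-115440419. Plin2 is at chr4:86302469-86315963, and Plin4 (chr17:56240014-56249225) and Plin5 (chr17:56251024-56256971) are neighbours on the minus strand, with 1798 bases between them. Cidea is at chr18:67503218-67527448, Cideb at chr14:56372892-56377261 and Cidec at chr6:113374628-113385754. No member overlapped another locus on its own strand. Plin4 overlapped Hdgfrp2, Cidea overlapped B430212C06Rik and Cideb overlapped Nop9 on the opposite strand, which the strand-specific counting kept apart.

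Levels between genes were compared in the deposited TPM values, which divide each count by a gene length. Fabp1, the fatty acid binding protein of the hepatocyte cytosol, was by far the most abundant member, with group means of 13516 to 18850.3 TPM. Plin2, the main droplet coat protein of hepatocytes, followed with 359 to 572 TPM and Cideb with 261 to 307 TPM. Cd36, a fatty acid translocase of the cell surface, ranged from 11.4 to 76.0 TPM, Plin5 from 31.4 to 46.0 TPM and Lpl, the lipoprotein lipase, from 6.38 to 27.7 TPM. As a ratio of the highest to the lowest group mean, Pparg covered the widest range of the 9 tested genes, from 0.139 to 16.1 TPM. Plin4 lay at 1.33 to 3.53 TPM and Cidec at 0.417 to 3.27 TPM, and Cidea reached 1.74 TPM in B6 males and at most 0.0182 TPM in the other groups.

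**Figure D1:**
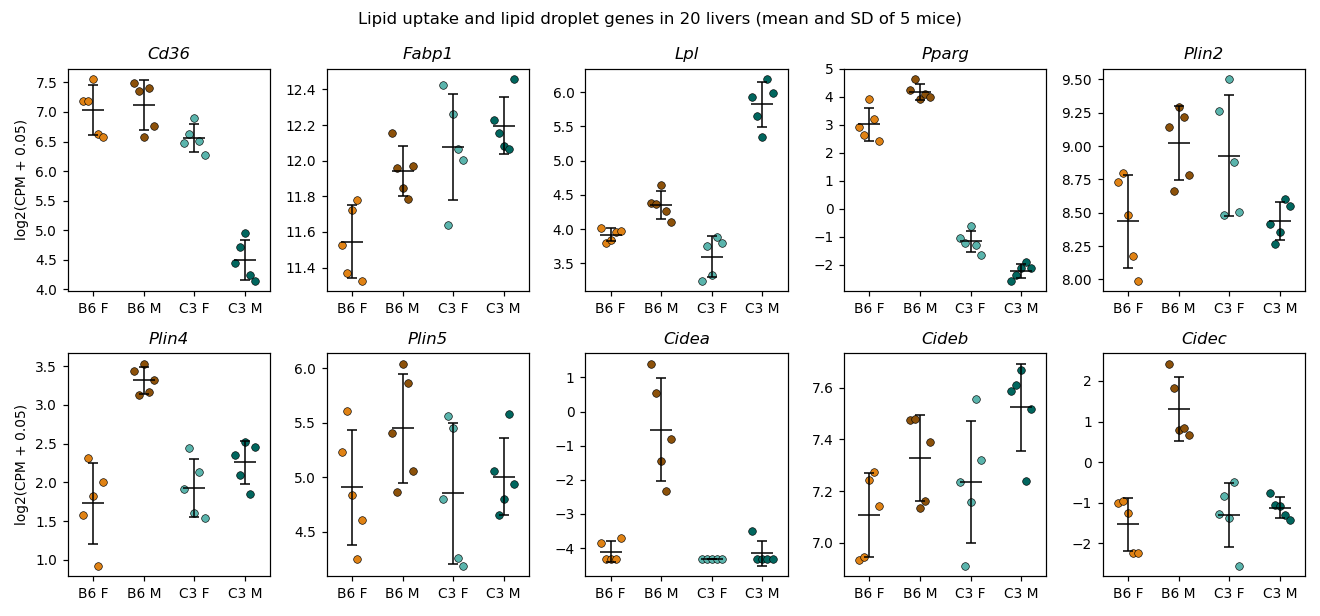
Expression of the 10 genes in each liver, as log2(CPM + 0.05) on separate vertical axes, by group. Points are livers, and the bar and whiskers are the mean and SD of 5 mice. Cd36 sits low in C3 males, Lpl sits high in C3 males, Pparg sits low in both C3 groups, and Plin4, Cidec and Cidea sit high in B6 males.

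A gene was called when edgeR's quasi-likelihood test, with group and pool in 1 model over all 20 livers, gave a Benjamini-Hochberg adjusted p under 0.001 and a log2 fold change beyond 0.5. Between B6 females and males 4 of the 9 tested members were called, Pparg, Plin4, Plin5 and Cidec, all lower in females. Of all genes tested in this comparison 6.34% were called, 3.23% higher and 3.12% lower in females. Between C3 females and males 2 members were called, Cd36 higher and Lpl lower in females, against 6.9% of all genes (4.11% higher, 2.79% lower). Between C3 and B6 females 2 were called, Fabp1 higher and Pparg lower in C3, against 9.4% of all genes (4.63% higher, 4.77% lower). Between C3 and B6 males 5 were called, Lpl higher and Cd36, Pparg, Plin4 and Cidec lower in C3, against 9.64% of all genes (4.09% higher, 5.55% lower). The difference of the sex difference between the strains was called for Cd36 and Lpl, against 0.401% of all genes. Because the members were chosen with earlier results of these data known, these counts are no test against the shares of all genes.

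The median log2 fold change over the 9 members, females against males, was −0.53 in B6 and −0.04 in C3, while that of all genes tested was 0.00 and 0.01. For C3 against B6 it was 0.13 in females and −0.56 in males, where that of all genes was 0.02 and 0.01. Each group enters 2 of these 4 comparisons, so that they are not independent of each other.

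**Figure D2:**
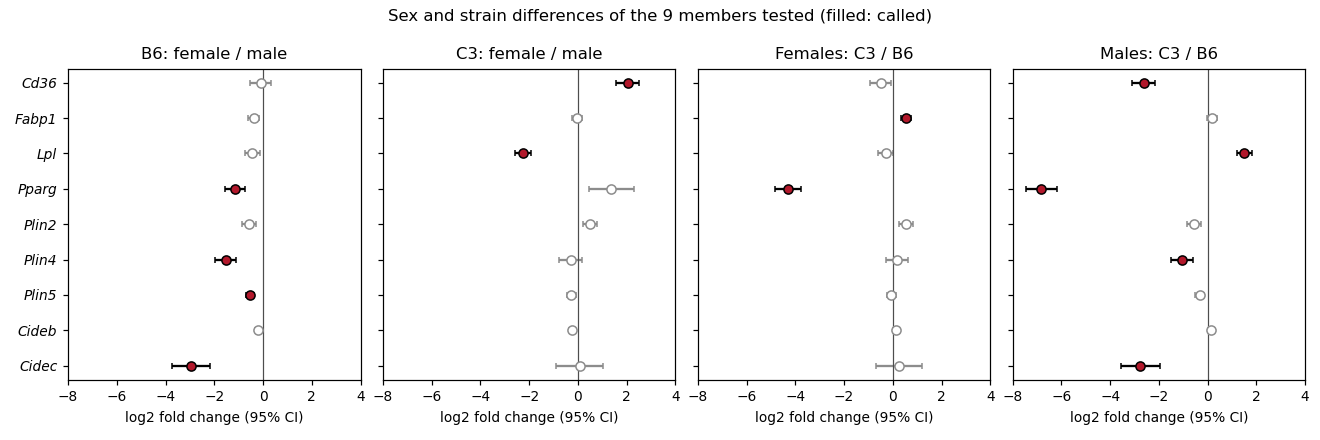
Log2 fold changes with 95% confidence intervals of the 9 tested members in the 4 comparisons, on a common horizontal axis. Filled points were called and open points were not. The largest difference is that of Pparg between males, −6.82, and Cd36 and Lpl lie on opposite sides of 0 in both comparisons that involve C3 males.

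Cd36 was low in C3 males alone. The 5 C3 male livers had 17.5, 18.8, 21.7, 26.3 and 31.0 CPM. In C3 females they had 76.9, 89.3, 91.0, 99.0 and 119 CPM. In B6 females they had 94.9, 98.7, 145, 146 and 189 CPM. Every C3 male liver was below every liver of the other groups, and in B6 males, at 95.8, 108, 164, 169 and 180.3 CPM, the values overlapped those of B6 females. The log2 fold change of C3 females over C3 males was 2.04 (SE 0.22, edgeR adjusted p = 1.72e-06), a 4.10-fold difference, and within the pools it was 1.55, 2.19 and 2.53. C3 males were lower than B6 males by −2.63 (SE 0.22, edgeR adjusted p = 3.23e-08). In B6 the sexes differed by −0.10 (95% interval −0.54 to 0.33), and between females the strains differed by −0.49 (SE 0.21, adjusted p = 0.0804).

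The sex difference of Cd36 was larger in C3 than in B6 by 2.14 on the log2 scale (SE 0.30, edgeR adjusted p = 0.00043). Within the pools this difference was 2.01, 2.12 and 2.33. It passed the threshold in 12 of the 20 fits that left out 1 liver. Without B6 F replicate 1 or 2, B6 M replicate 1 or 2, C3 F replicate 3 or 4, or C3 M replicate 1 or 4 it was 2.04 to 2.17, with adjusted p between 0.00106 and 0.00182.

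Lpl, the gene of a lipase made mainly in fat and muscle and little in adult liver, was high in C3 males alone. The C3 male livers had 40.4, 50.2, 61.2, 63.3 and 73.4 CPM. In C3 females the livers had 9.39, 9.96, 13.5, 13.8 and 14.7 CPM. In B6 they had 13.9, 14.2, 15.4, 15.6 and 16.1 CPM in females. The B6 males, at 17.1, 19.1, 20.6, 20.9 and 24.9 CPM, did not overlap the B6 females, but the difference of −0.44 (SE 0.15, edgeR adjusted p = 0.0259) was not called. C3 females were lower than C3 males by −2.25 (SE 0.15, edgeR adjusted p = 3.92e-09), with within-pool values of −1.66, −2.72 and −2.66. C3 males exceeded B6 males by 1.51 (SE 0.15, edgeR adjusted p = 2.34e-07), and the female strains differed by −0.30 (95% interval −0.61 to 0.02). The sex difference was more negative in C3 than in B6 by −1.80 (SE 0.21, edgeR adjusted p = 5.97e-05), and it stayed called in all 20 fits that left out 1 liver.

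Fabp1 was high in every liver. The B6 females had 2563, 2641, 2956, 3387 and 3510.1 CPM. The C3 females had 3185, 4101, 4291, 4912 and 5494 CPM, so that the groups overlapped. Fabp1 was higher in C3 than in B6 females by 0.54 (SE 0.10, edgeR adjusted p = 0.000345), close to the threshold on size. It was not called without B6 F replicate 2, 3 or 5 or without C3 F replicate 1 or 3, where the difference was 0.45 to 0.53 with adjusted p between 0.00137 and 0.00162. Of 9 alternative settings 5 kept the call. It was lost in edgeR without pool (0.55, adjusted p = 0.006) and with the 2 groups alone (0.53, adjusted p = 0.0127). Limma on log2(TPM + 1) and log2(TPM + 0.1) gave 0.46 on both scales (limma adjusted p = 0.00274 and 0.00253). B6 males had 3523 to 4558 CPM and C3 males 4286 to 5636 CPM. None of the other comparisons was called for Fabp1, and B6 females differed from B6 males by −0.39 (adjusted p = 0.00578) with no overlap of the groups.

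Pparg differed most between the strains. The livers of B6 males had 15.0, 15.8, 17.1, 18.9 and 25.1 CPM. Those of B6 females had 5.28, 6.15, 7.51, 9.13 and 15.0 CPM. In C3 the level was near the limit of these libraries, at 0.270, 0.360, 0.377, 0.430 and 0.605 CPM in females. In C3 males it was 0.116, 0.144, 0.178, 0.180 and 0.214 CPM, from 3 to 9 counts per liver, against 515 to 820 counts in B6 males. A count of 3 corresponded to 0.0590 to 0.116 CPM across the libraries.

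All C3 livers were below all B6 livers in Pparg. C3 females were lower than B6 females by −4.29 (SE 0.26, edgeR adjusted p = 3.48e-10), or 19.6-fold. C3 males were lower than B6 males by −6.82 (SE 0.30, edgeR adjusted p = 3.24e-12), with −6.53, −6.57 and −5.90 within the pools. On the log2(TPM + 1) scale, which shrinks the difference of genes of low level, limma gave −2.67 and −3.94. Within B6 the females were lower by −1.15 (SE 0.19, edgeR adjusted p = 0.000154), and this was not called without pool in the model (−1.10, adjusted p = 0.00215), with the 2 B6 groups alone (−1.15, adjusted p = 0.00318) or with limma on log2(TPM + 0.1) (−1.04, adjusted p = 0.0014). Over 9 alternative settings its adjusted p ran from 6.61e-06 to 0.00318. Within C3 the females were higher, without overlap, by 1.37 (SE 0.45, adjusted p = 0.0209), which was not called. The difference of the sex differences was 2.52 (SE 0.48, adjusted p = 0.00544) and was not called. It was called by DESeq2 (2.5, DESeq2 adjusted p = 6.67e-06), by limma on log2(TPM + 0.1) (2.03, limma adjusted p = 0.000998) and by edgeR without B6 F replicate 3 (2.68, edgeR adjusted p = 0.000927).

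Pparg has several promoters, and receptors of its family, as heterodimers with retinoid X receptors, bind direct repeats of AGGTCA-like elements. The 250 bases upstream of the annotated start, from RefSeq on GRCm38.p6, are shown for Pparg as the member with the largest strain difference, for Fabp1 as the member with a direct repeat, and for Cd36 as a member of the opposite sex pattern to Lpl. They are the reference sequence, from a C57BL/6J mouse and so from neither substrain studied here, and the sequences of the B6 and C3 mice were not analysed here. Capitals mark matches of AGGTCA or of the direct repeat AGGNCANAGGNCA on either strand, and the repeat can contain the shorter element. Windows of 8 members were searched, 12 in all. Lpl had no window in the sequences used and Cidea was left out, so the counts of member windows do not cover them.
Fabp1, chr6:71199629-71199878, plus strand: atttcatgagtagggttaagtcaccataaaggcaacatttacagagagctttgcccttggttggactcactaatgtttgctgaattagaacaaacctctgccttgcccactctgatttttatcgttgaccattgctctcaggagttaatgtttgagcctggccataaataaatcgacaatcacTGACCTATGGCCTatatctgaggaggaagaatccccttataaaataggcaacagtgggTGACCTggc
Cd36, chr5:17835897-17836146, minus strand: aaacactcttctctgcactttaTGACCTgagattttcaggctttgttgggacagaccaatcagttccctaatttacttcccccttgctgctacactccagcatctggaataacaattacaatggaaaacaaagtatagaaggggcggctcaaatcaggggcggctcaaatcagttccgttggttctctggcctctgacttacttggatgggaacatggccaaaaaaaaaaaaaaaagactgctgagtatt
Pparg, chr6:115360894-115361143, plus strand: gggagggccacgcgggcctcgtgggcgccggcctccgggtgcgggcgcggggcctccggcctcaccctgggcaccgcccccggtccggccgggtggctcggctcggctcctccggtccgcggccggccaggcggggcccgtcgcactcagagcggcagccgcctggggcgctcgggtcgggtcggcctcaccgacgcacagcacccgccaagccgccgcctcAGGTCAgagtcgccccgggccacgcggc
Pparg, chr6:115362099-115362348, plus strand: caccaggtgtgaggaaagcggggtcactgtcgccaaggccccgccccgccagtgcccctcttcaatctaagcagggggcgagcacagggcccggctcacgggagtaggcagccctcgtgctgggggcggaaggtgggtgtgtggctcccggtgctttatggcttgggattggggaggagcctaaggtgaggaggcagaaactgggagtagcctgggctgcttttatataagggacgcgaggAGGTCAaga
Pparg, chr6:115421816-115422065, plus strand: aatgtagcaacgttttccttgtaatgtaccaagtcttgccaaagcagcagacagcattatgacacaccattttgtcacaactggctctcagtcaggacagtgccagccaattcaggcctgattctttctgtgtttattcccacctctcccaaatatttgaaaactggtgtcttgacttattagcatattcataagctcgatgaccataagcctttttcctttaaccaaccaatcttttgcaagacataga

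The direct repeat was found in 1 of the 12 windows of members, that of Fabp1, and in 0.338% of all 32851 windows of this length. AGGTCA was found in 6 of the 12 windows and in 14% of all windows. Among the windows shown, it was present in those of Fabp1 and Cd36 and in the first and the second of the Pparg windows, and these letters were not in the third Pparg window. Only the sequence was searched, and binding was not measured.

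The perilipins coat lipid droplets. Plin4, which is typical of fat and muscle and coats small droplets, was highest in B6 males, at 8.69, 8.93, 9.91, 10.7 and 11.5 CPM. The B6 females had 1.84, 2.93, 3.51, 3.98 and 4.91 CPM. C3 females had 2.85 to 5.39 CPM and C3 males 3.56 to 5.69 CPM, and no liver of these 3 groups reached the lowest B6 male. B6 females were lower than B6 males by −1.53 (SE 0.21, edgeR adjusted p = 2.11e-05), with −1.75, −1.60 and −1.41 within the pools. C3 males were lower than B6 males by −1.06 (SE 0.21, edgeR adjusted p = 0.000693). The latter was not called in 8 of the 20 fits that left out 1 liver, namely B6 M replicates 1, 2, 3 and 5 and C3 M replicates 1, 2, 4 and 5, with differences from −1.10 to −0.91 and adjusted p between 0.00129 and 0.00476. Of 9 alternative settings 7 kept the call between the males. It was lost in edgeR without pool (−1.06, edgeR adjusted p = 0.00112) and with a replicate block (−1.08, edgeR adjusted p = 0.00104). The sexes of C3 differed by −0.30 (95% interval −0.76 to 0.16).

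Plin2 was called in no comparison by edgeR with all 20 livers. The B6 females had 254, 289, 358, 424 and 445 CPM. The B6 males had 406, 441, 565, 596 and 626 CPM. In C3 the females had 358, 364, 470.2, 613 and 727 CPM. The C3 males had 307, 327, 342, 375 and 389 CPM, below every B6 male. The female minus male difference was −0.58 in B6 (SE 0.13, adjusted p = 0.00284) and 0.51 in C3 (SE 0.14, adjusted p = 0.00721), and the 2 differed by 1.09 (SE 0.19, adjusted p = 0.00289). DESeq2 on all livers called Plin2 between the sexes of B6 (−0.59, DESeq2 adjusted p = 0.000167), between the males (−0.56, DESeq2 adjusted p = 0.00055) and for the difference of the sex differences (1.08, DESeq2 adjusted p = 6.43e-06). With the 2 groups compared alone, edgeR called it between the sexes of B6 (−0.58) and between the males (−0.56). Without C3 F replicate 2, Plin2 was called in all 5 comparisons, at −0.59 and 0.63 for sex in B6 and C3, 0.68 and −0.54 for strain in females and males, and 1.22 for the difference of the sex differences, with edgeR adjusted p of at most 6.87e-05.

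Plin5, the perilipin of oxidative tissues that links droplets to mitochondria, was lower in B6 females than in B6 males by −0.53 (SE 0.09, edgeR adjusted p = 0.000141). The B6 females had 19.0, 24.4, 28.6, 37.4 and 48.6 CPM. The B6 males had 29.2, 33.2, 42.5, 58.2 and 65.9 CPM, so that the groups overlapped. Within the pools the difference was −0.53, −0.57 and −0.54. The call was lost in 5 of 9 alternative settings, over which the adjusted p ran from 1.23e-07 to 0.266. These were the model without pool (−0.53, adjusted p = 0.266), the 2 B6 groups alone (−0.53, adjusted p = 0.00244), upper-quartile factors (−0.47) and limma on log2(TPM + 1) or log2(TPM + 0.1) (−0.41 and −0.42). The difference also fell under the size threshold without B6 F replicate 1 (−0.48) or 4 (−0.49). In C3 the sexes differed by −0.27 (SE 0.09, adjusted p = 0.0216), and neither strain comparison was called.

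The spread of Plin5 within groups followed the sequencing pool. In B6 females the pool 3 livers had 37.4 and 48.6 CPM and the others 19.0 to 28.6 CPM. In B6 males the pool 3 livers had 58.2 and 65.9 CPM and the others 29.2 to 42.5 CPM. In C3 females they had 43.8 and 47.2 CPM against 18.2 to 27.8 CPM, and in C3 males the only pool 3 liver had 47.8 CPM against 25.2 to 33.3 CPM. Pool 3 exceeded pool 1 by 1.04 (SE 0.07, edgeR adjusted p = 4.84e-10), where 20% of all genes tested were called between these pools. This comparison and the other 2 between pools were added after the values had been seen. Plin2 differed between pools 3 and 1 by 0.48 (adjusted p = 0.00104) and Cideb by −0.34 (adjusted p = 6.96e-06), neither of which was called. The labels call these groups of libraries sequencing pools, and what else differed between them was not tested.

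**Figure D3:**
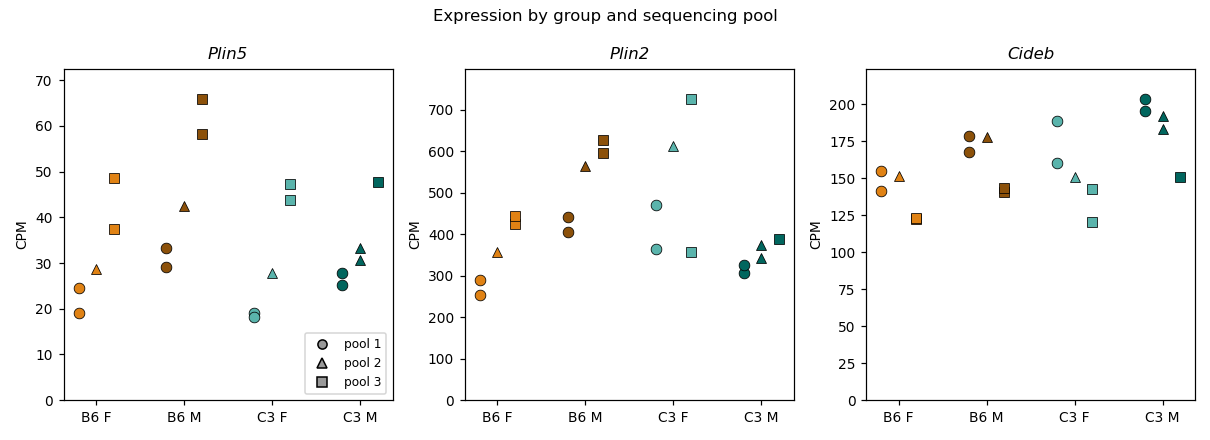
CPM of Plin5, Plin2 and Cideb in each liver by group (horizontal axis) and sequencing pool (circles, pool 1, triangles, pool 2, squares, pool 3). In all 4 groups the pool 3 livers have the highest Plin5, whereas they have the lowest Cideb.

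The CIDE genes act at the droplet surface. Cidec, which drives the fusion of droplets and rises in fatty liver, had 1.53, 1.69, 1.73, 3.52 and 5.32 CPM in B6 males. In B6 females it had 0.163, 0.163, 0.371, 0.452 and 0.462 CPM. C3 females had 0.120 to 0.661 CPM and C3 males 0.321 to 0.542 CPM, with 4 to 23 counts per liver, and every B6 male was above all of these. B6 females were lower than B6 males by −2.95 (SE 0.38, edgeR adjusted p = 1.09e-05), and C3 males were lower than B6 males by −2.76 (SE 0.38, edgeR adjusted p = 1.42e-05). The within-pool values of the first were −3.45, −3.66 and −1.78. On the log2(TPM + 1) scale limma gave −1.50 and −1.48. The sexes of C3 differed by 0.08 (95% interval −0.88 to 1.04), and the difference of the sex differences, 3.03 (SE 0.59, adjusted p = 0.00635), was not called by edgeR but was by DESeq2 (3.05, DESeq2 adjusted p = 2.7e-05).

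Cidea, which is best known from brown fat and is induced in steatotic liver, was counted in all 5 B6 males, with 81, 46, 17, 13 and 6 reads, and with at most 1 read in any liver of the other groups. The B6 male livers had 2.60, 1.41, 0.522, 0.318 and 0.148 CPM. Taking 3 counts per library as the floor, B6 males were at least 13.0-fold higher than B6 females and at least 10.6-fold higher than C3 males. Without B6 M replicate 1 the bounds were 7.81 and 6.36, and without replicates 1 and 2 they were 4.29 and 3.50. With no filter on low counts edgeR called Cidea between the sexes of B6 (edgeR adjusted p = 3.93e-06). It also called Cidea between the males (edgeR adjusted p = 7.57e-07). Both calls restate where the reads of Cidea lie. In the same fit Cidea was not called between the sexes of C3 or between the female strains. It was not called for the difference of the sex differences either. With at most 1 read per liver outside B6 males, the fit cannot decide these comparisons.

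Cideb, the hepatocyte member of the family that takes part in the lipidation of very low density lipoprotein, was called in no comparison. The B6 females had 122, 123, 141, 151 and 155 CPM and the C3 males, the highest group, 151, 183, 192, 195 and 204 CPM. B6 males had 140.5 to 178 CPM and C3 females 120.3 to 188 CPM. Females were lower by −0.22 in B6 (SE 0.06, adjusted p = 0.0071) and by −0.23 in C3 (SE 0.06, adjusted p = 0.00584). Both differences missed the threshold on adjusted p and the threshold on size.

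Of 76 other genes of these pathways, also chosen with earlier results of these data known, 74 were tested. Between B6 females and males 5 were called higher and 6 lower, where 3.23% and 3.12% of all genes tested were. Between C3 females and males 4 were higher and 2 lower (4.11% and 2.79% of all genes). Between C3 and B6 females 1 was higher and 5 lower (4.63% and 4.77% of all genes), and between C3 and B6 males 0 and 7 (4.09% and 5.55% of all genes). The difference of the sex differences was called for 2 (0.401% of all genes). The median log2 fold change of the 74 was −0.13, 0.02, 0.09 and −0.01 in the 4 comparisons, and that of all genes was 0.00, 0.01, 0.02 and 0.01.

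Among 18 tested genes of fatty acid uptake, Cav1, a caveolar coat protein, was high in B6 males alone, with 9.11 to 13.6 CPM against 2.18 to 3.60 CPM in the other 3 groups. It was lower in B6 females (−1.76, SE 0.14, edgeR adjusted p = 3.08e-08) and in C3 males (−1.85, SE 0.15, edgeR adjusted p = 1.13e-08) than in B6 males. Fabp5, a binding protein of skin and macrophages that is also made in liver, rose in C3 over B6 females by 2.17 (SE 0.39, edgeR adjusted p = 0.000239). In males it was not called, though C3 livers had 22.5 to 43.7 CPM and B6 livers 4.29 to 14.7 CPM. The transporter gene Slc27a1 fell in C3 by −0.72 in females and −0.73 in males. Acsl6, an acyl-CoA synthetase with few reads, had 10 to 26 reads per C3 male liver and at most 1 in C3 females. In B6 it had 8 to 23 reads per male liver and 0 to 6 in females. That difference (−2.13, edgeR adjusted p = 0.00265) was not called, though the groups did not overlap. Acsl6 passed the filter on low counts only through male livers. Its call between the sexes of C3, counted above, therefore restates where its reads lie.

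Among 13 genes of lipoprotein lipolysis, Vldlr, a lipoprotein receptor, rose in females over males by 2.41 in B6 and 3.07 in C3 (edgeR adjusted p = 0.000218 and 0.000184). The hepatic lipase gene Lipc rose in B6 females by 0.65. In C3 females it was higher by 0.42 (edgeR adjusted p = 4.29e-05) without overlap, below the size threshold. Gpihbp1, whose protein carries lipoprotein lipase to the capillary wall, fell in C3 by −0.51 in females and −0.60 in males.

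Among 10 tested genes of droplet coat and assembly, Fitm1, which partitions triglyceride into droplets, was called in all 4 comparisons. It had 36.5 to 60.1 CPM in B6 males, 3.31 to 11.4 CPM in B6 females, 3.80 to 8.05 CPM in C3 males and 1.04 to 1.85 CPM in C3 females. The differences were −2.81 and −2.06 for females against males in B6 and C3, and −2.43 and −3.18 for C3 against B6 in females and males, with edgeR adjusted p of at most 1.14e-06. The droplet protein gene Hsd17b13 fell in C3 by −0.92 in females and −1.19 in males. Mest rose (0.67) and Fitm2 fell (−0.55) in B6 females. In C3 females they differed from males by 0.43 and −0.20, which was not called.

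Among 10 genes of droplet lipolysis, Pnpla3, whose protein sits on droplets, rose in C3 females over C3 males by 3.42 (SE 0.65, edgeR adjusted p = 0.000631), and the esterase gene Aadac fell in C3 by −0.86 in females and −0.89 in males. In B6 the sexes differed in Pnpla3 by 1.87 (SE 0.74, edgeR adjusted p = 0.0569), which was not called. Among 12 genes of triglyceride synthesis and export, Mogat1, a monoacylglycerol acyltransferase, had 1.42 to 3.76 CPM in B6 males and at most 0.628 CPM elsewhere, and fell in B6 females by −2.62 and in C3 males by −3.85 (edgeR adjusted p = 3.27e-06 and 1.02e-07). Tm6sf2, which takes part in lipoprotein export, rose in females by 1.19 in B6 and 1.21 in C3, and Agpat2 fell in B6 females by −0.57. In C3 females Agpat2 differed by −0.20, which was not called. Of 11 PPAR partners and coregulators 1 was called, Rxrg, a retinoid X receptor. It was higher in females by 0.87 in B6 and 0.88 in C3, where 3.23% and 4.11% of all genes were called higher.

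**Figure D4:**
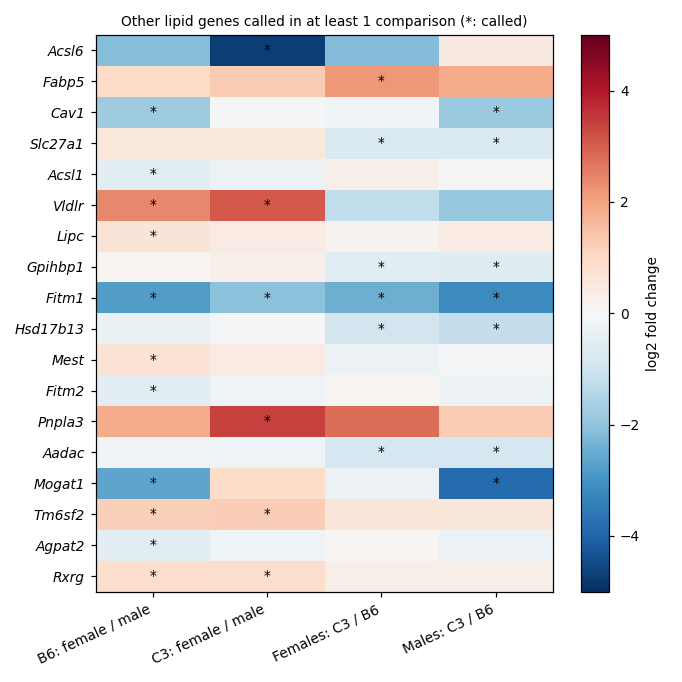
Log2 fold changes (colour scale) of the 18 other lipid genes called in at least 1 of the 4 comparisons, with an asterisk where called. Fitm1 carries an asterisk in all 4 columns, and Cav1 and Mogat1 in the 2 columns that involve B6 males. Acsl6 passed the filter on low counts only through male livers.

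Of the adipocyte markers, Adipoq, Lep, Plin1, Retn and Adig had at most 5 reads in any liver, and Lep had 0 in all. Cfd, which encodes the serine protease adipsin, had 23 to 114 reads in each B6 male liver and 0 in all other livers, and carried the summed marker level of 0.637 to 3.85 CPM in B6 males against at most 0.155 CPM elsewhere. Of the 6 markers, Cfd alone was tested, and it passed the filter on low counts only through B6 males. Its calls in both comparisons with B6 males therefore restate where its reads lie. Pparg, Plin4, Cidec and Cidea were also higher in B6 males in these comparisons. A part of fat cells in those differences was not tested. Lpl and Plin4 are also made by muscle, whose markers had at most 5 reads in any liver.

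Cd36 is also made by macrophages and endothelial cells. The 6 Kupffer cell markers summed to 338.7 to 448 CPM in B6 females, 216 to 332 CPM in B6 males, 238 to 357 CPM in C3 females and 164 to 245 CPM in C3 males, and 3 of them were called lower in C3 than in B6 females and 2 in C3 than in B6 males, where 4.77% and 5.55% of all genes were. Between the sexes 1 of the 6, Vsig4, was called, higher in females by 0.75 in B6 and 0.51 in C3 (edgeR adjusted p = 8.83e-06 and 0.000662), where 3.23% and 4.11% of all genes were higher in females. The 6 sinusoidal endothelial markers summed to a median of 449 CPM in B6 females, 345 CPM in B6 males, 418 CPM in C3 females and 358 CPM in C3 males. Of these 6, 1 was called lower in C3 than in B6 females, where 4.77% of all genes were. The 6 stellate cell markers had medians of 626, 490.2, 497 and 424 CPM, and none was called. All 6 stellate markers were higher in females than in males, by 0.30 to 0.52 in B6 and 0.16 to 0.37 in C3. The part of these cell types in the differences of the members was not tested, and in whole liver fewer cells of a type and less RNA per cell cannot be told apart.

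After the fitted means of group and pool were subtracted, the genes whose log2 CPM was most like that of a member over the 20 livers were found by Pearson's r, as a description with no test, among all genes tested. They were Syt9 (0.903), Aqp4 (0.861) and Agmo (0.829) for Pparg and Cyp4b1 (0.877), Esd (0.854) and Bphl (0.848) for Cd36. For Lpl they were Tssc1 (0.815), Wdhd1 (0.785) and Sez6l2 (0.780), and for Fabp1 Fnip1 (0.829), Hspb11 (0.816) and Grb14 (0.814). Plin2 was most like Pcbp4 (0.872), Slc25a20 (0.856) and Gm12718 (0.842), Plin4 like Phospho2 (0.890), Prdm15 (0.873) and Mfsd2a (0.870), and Plin5 like Pex26 (0.873), Pdik1l (0.824) and Proser2 (0.817). For Cideb they were Nlrp3 (0.886), Stom (0.883) and Fam129b (0.847), and for Cidec Aup1 (0.816), Wbp1l (0.814) and Ttc30a1 (0.793). The livers share group, pool and library depth, and each value is among the 3 highest of 13704 genes and is high by selection.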

How the data were processed

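Liver RNA of 20 mice was measured by RNA-seq from ribosomal RNA-depleted, strand-specific total RNA libraries. According to the study's methods, the authors trimmed read pairs with cutadapt 1.9.1, aligned them to mm9 with STAR 2.5.1b and obtained counts per RefSeq gene from featureCounts (Subread 1.5.0-p1), leaving out multimapping and multi-overlapping reads. The authors deposited these raw counts, without normalization, and TPM values made from them; the gene length behind the TPM values is not given in the sources used here. The headers of the symbol and gene identifier columns are exchanged in the deposited tables, and the columns were read by content. Groups, replicates and pools came from the sample labels.

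Counts were analysed with edgeR 4.0.16 in R 4.3.3 (filterByExpr, TMM, quasi-likelihood test) over all 20 livers, with group and pool in the model and p-values adjusted by the Benjamini-Hochberg method over all 13704 genes tested. CPM values used TMM-scaled library sizes, and log2 CPM for likeness and within-pool values had a prior count of 2. The scripts were tested on simulated counts. No 2 livers of a group agreed within sampling noise (chi-square per degree of freedom at least 19.9 over 40 pairs). Total counts were 27370921 to 46835745, and floors of 3 counts cover counting error only. Alternatives were DESeq2 1.42.0, limma 3.58.1 on log2(TPM + 1) and log2(TPM + 0.1), RLE and upper-quartile normalization, no filter, no pool, a replicate block, the 2 groups alone, adjusted p under 0.05 and each liver left out. All 10 members were described. Of each pathway list, at most 4 called genes were named, by largest log2 fold change, and the 3 genes most like each member were named. The members and the gene lists were chosen with earlier results of these data known. Sequences are from RefSeq (GRCm38.p6).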

Additional observations from a re-analysis of the deposited data

Results flagged for a closer look

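The difference of the sex difference between the strains, C3 minus B6, passed the test for 2 of the 9 members tested and 2 of the 74 other lipid genes tested, where 0.401% of all genes (55 of 13704) did. It was 2.14 for Cd36 (edgeR adjusted p = 0.00043) and −1.80 for Lpl (edgeR adjusted p = 5.97e-05). It was 1.71 for Cav1 (edgeR adjusted p = 8.63e-05) and 3.54 for Mogat1 (edgeR adjusted p = 0.000801). The group that stood apart was C3 males for Cd36 and Lpl, and B6 males for Cav1 and Mogat1. Members and lists were chosen with earlier results of these data known, so the counts are no test against the share of all genes. No liver stood apart from its group by Dixon's criterion for any of the 37 sets of values checked.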

How the results depend on the processing

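Members called, of 9 or 10, moved under some settings. With an adjusted p under 0.05 and no minimum fold, 8 were called between the sexes of B6, 6 between those of C3 and 6 for the difference of the sex differences, where 4742, 5479 and 405 of all 13704 genes were. Without pool in the model 2 were called between the sexes of B6, as with limma on log2(TPM + 0.1), and 1 between the female strains, as with both limma scales and with the 2 groups alone. Of all genes, limma on log2(TPM + 0.1) called 990 between the sexes of B6. Between the female strains limma on log2(TPM + 1) called 1134 of all genes, limma on log2(TPM + 0.1) called 1311, and the 2 groups alone gave 876. DESeq2 called 5 for the difference of the sex differences, Cd36, Lpl, Pparg, Plin2 and Cidec. With 1 liver left out, 1 to 3 were called between the female strains and 1 to 3 for the difference of the sex differences. In the fits with 1 member called between the female strains, 1152 to 1183 of all genes were called, rather than 1288. In those with 1 member called for the difference of the sex differences, 32 to 47 of all genes were, rather than 55. Some values near 0, never called, changed sign: Cd36 between the sexes of B6 (0.0231 and 0.0234 with limma), Fabp1 between those of C3 (0.0260 with upper-quartile factors and 0.0596 on both limma scales, and from −0.118 to 0.0311 with a liver left out), and Cidec between those of C3 (−0.0408 without pool, −0.0127 with limma on log2(TPM + 0.1), −0.0369 with 2 groups alone, and from −0.229 to 0.295 with a liver left out). Leaving out a liver also took Plin5 and Cidec between the female strains from −0.117 to 0.000143 and from −0.0212 to 0.484, and Cideb, for the difference of the sex differences, from −0.0541 to 0.0282. The cause was not tested. Of 395 values of members under other settings 365 kept direction and call, and of 900 with a liver left out 857 did. Over all genes, 421 rather than 869 were called between the sexes of B6 without pool and 482 rather than 945 between those of C3. Between the strains it was 815 rather than 1288 in females and 881 rather than 1321 in males. The difference of the sex differences was called for 55 genes, for 20 without pool and for 181 with DESeq2. With upper-quartile factors the share of calls higher in females was 64.3% rather than 50.9% in B6 and 70.0% rather than 59.6% in C3. Same replicate numbers did not pair livers (10 of 30 pairs correlated over 0.1, from −0.496 to 0.631). All 10 were among the 11 pairs that shared a pool. With a replicate block 4, 2, 2, 4 and 2 members were called, where 845, 933, 1222, 1263 and 40 of all genes were. The 4 between males lacked Plin4 (adjusted p = 0.00104). Depth limits Cidea and Pparg in C3.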
